A study of Homo sapiens with 9 samples.

Results

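Inflammatory chemokines and cytokines are secreted proteins through which tumor cells call in leukocytes and act on each other. The genes described here are 10 of the 60606 in the table, chosen by symbol: the CXC chemokines CXCL1, CXCL2, CXCL3 and CXCL8, the CC chemokines CCL2 and CCL20, and the cytokines IL1A, IL1B, IL6 and LIF. All 10 had a mean above 1 TPM (transcripts out of 1000000 in a library, a level in which gene length and library total are divided out) and were among the 22909 genes tested. U87, an established human glioblastoma cell line, was grown in medium with 10% fetal bovine serum. GSCs are stem cells derived from U87 without serum, with 20 ng/ml of EGF and the same concentration of bFGF, and they had received 13 rounds of 5 Gy. Diff cells are GSCs returned to 10% serum and picked from clonal communities, so the GSCs' irradiation is part of their history too. Each line had 3 libraries. Irradiation, derivation as stem cells and medium changed together between U87 and GSCs, and serum, the withdrawal of EGF and bFGF and the picking of clones between GSCs and Diff cells, so these cannot be told apart.

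Most genes of this group are switched on by the transcription factor NF-κB, which IL-1 and TNF receptors activate, and their short-lived mRNAs are destroyed by proteins such as ZFP36. CXCL1, CXCL2, CXCL3 and CXCL8 attract neutrophils through CXCR2, CCL2 attracts monocytes through CCR2, and CCL20 attracts CCR6-bearing lymphocytes and dendritic cells. IL-6 and LIF signal through the shared receptor chain gp130, encoded by IL6ST, to STAT3. In glioblastoma these factors are known for links to mesenchymal tumors, to myeloid cells in the tumor and to stem cell maintenance.

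Promoters of 5 chemokines and of IL6 are shown first because they hold the same short sequence. A RefSeq promoter entry (build GRCh38.p14) was matched for 8 of the 10 genes, all but CCL2 and LIF. In the 250 bases before the start, 6 of these 8 held the NF-κB-type sequence GGNNTTTCC, searched on both strands, against 5.49% of 35116 promoters. The matches are printed in capitals with 10 bases on each side, 5′ to 3′ on the strand of the gene, with the distance of the match from the start.
CXCL1, 78 bases before the start, chr4:73869305-73869333, plus strand: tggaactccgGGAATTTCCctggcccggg
CXCL2, 77 bases before the start, chr4:74099254-74099282, minus strand: tggagctccgGGAATTTCCctggcccggg
CXCL3, 78 bases before the start, chr4:74038749-74038777, minus strand: tggagctccgGGAATTTCCctggcccggc
CXCL8, 91 bases before the start, chr4:73740468-73740496, plus strand: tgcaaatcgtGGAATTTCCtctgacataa
IL6, 72 bases before the start, chr7:22727118-22727146, plus strand: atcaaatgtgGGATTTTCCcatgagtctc
CCL20, 79 bases before the start, chr2:227813753-227813781, plus strand, with the match on the opposite strand: tgatcaatggGGAAAACCCcatgtggcaa
CXCL1, CXCL2 and CXCL3 each held a second match 53 bases before the start. Over the 100 bases before the start, CXCL1 and CXCL2 were 94.1% identical, CXCL1 and CXCL3 90% and CXCL2 and CXCL3 89.1%. The window of CXCL1, chr4:73869293-73869392, shows the spacing of both matches.
CXCL1: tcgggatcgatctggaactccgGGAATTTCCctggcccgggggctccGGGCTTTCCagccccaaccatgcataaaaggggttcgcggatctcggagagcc
The AP-1-type sequence TGANTCA was found in 2 of 8 genes, CXCL8 and IL1A, against 6.57% of promoters. The TATA box sequence TATAAA was found in CXCL8, CCL20 and IL1A, against 10.7% of promoters. The starts are those of RefSeq, and GENCODE 29 has transcripts of most of these genes that begin further upstream: of the 100 bases before the RefSeq start, 98 lie in GENCODE exons of CXCL2, 100 of CXCL3, 63 of CXCL8, 53 of IL6, 20 of CCL20 and 0 of CXCL1. A match describes letters and is not a bound site.

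The genes lie in 6 places of the genome (GENCODE 29, GRCh38). CXCL8 (chr4:73740506-73743716), CXCL1 (chr4:73869393-73871242), CXCL3 (chr4:74036589-74038807) and CXCL2 (chr4:74097035-74099293) are neighbours on chromosome 4. IL1A (chr2:112773915-112784590) and IL1B (chr2:112829751-112836903) are neighbours on chromosome 2, which also holds CCL20 (chr2:227805739-227817564). IL6 lies at chr7:22725884-22732002, CCL2 at chr17:34255218-34257203 and LIF at chr22:30240447-30246851. CXCL1, CXCL2 and CXCL3 share parts of their transcripts. Of all 50-base stretches of these transcripts, 4.81%, 12.5% and 6.01%, respectively, also occurred in another of the 10 genes. The values of these 3 genes are uncertain where the counting could split such reads. Opposite-strand genes covered 20.7% of the exon bases of IL6 and 6.73% of those of LIF. Whether the counting used strand is not given in the sources used here.

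The transcript levels of the group moved from a spread of several genes in U87 to one led by LIF in Diff cells. The summed level of the 10 genes was 75.4 ± 6.98 TPM in U87, 79.2 ± 4.49 TPM in GSCs and 129 ± 5.02 TPM in Diff cells (SD, n = 3). LIF made up 15.6% of the mean sum in U87, 29.3% in GSCs and 64.9% in Diff cells. Without LIF, Diff cells had the lowest sum instead, with 63.6 ± 5.56, 56.1 ± 6.38 and 45.1 ± 3.18 TPM in U87, GSCs and Diff cells. The sums of U87 and GSCs libraries overlapped with LIF (67.4 to 80.3 and 74.1 to 82.2 TPM) and without it (57.3 to 67.6 and 49.2 to 61.8 TPM). The leading genes in U87 were IL1B (18.9 ± 3.16 TPM) and CXCL2 (18.8 ± 0.612 TPM), which did not differ beyond their spread. In GSCs, LIF (23.2 ± 2.45 TPM) and IL1B (22.3 ± 4.23 TPM) led, again within their spread. CCL2 was the lowest of the 10 in U87 and GSCs, and CXCL3 in Diff cells.

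**Figure D1:**
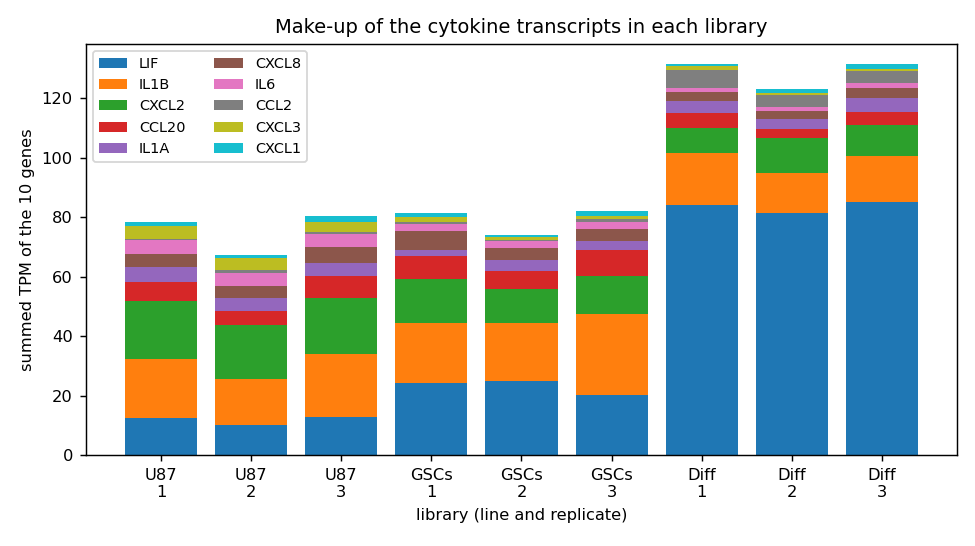
Stacked bars give the TPM of the 10 genes, one color per gene, in each of the 9 libraries (line and replicate on the horizontal axis, summed TPM on the vertical axis). LIF takes 15.6% of the mean sum in U87 and 64.9% in Diff cells, where the bars are tallest.

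The 3 lines were compared with limma on log2(TPM + 1), which understates the change of genes with low levels. Calls required a p under 0.05 after Benjamini-Hochberg adjustment over all tested genes and a log2 fold change beyond 1 in either direction. Between GSCs and U87, 1 of the 10 genes was called, lower, against 17.1% of the 22909 genes tested in either direction and 7.53% lower. Between Diff cells and U87, 4 were called, against 12.3% of all genes: 2 higher (5.92% of all genes) and 2 lower (6.36%). Between Diff cells and GSCs, 2 were called, both higher, against 8.01% of all genes in either direction and 2.66% higher. CCL2 was among the higher genes in both comparisons of Diff cells and reached a mean above 1 TPM through Diff cells alone. These counts of higher genes therefore rest in part on the filter. The median log2 fold change of the 10 genes was −0.11, −0.36 and −0.31 in these comparisons, and that of all tested genes 0.02, −0.04 and −0.06. GSCs and Diff cells were both set against the same U87 libraries. By adjusted p alone, 5, 5 and 6 of the 10 genes passed, against 48.6%, 39.4% and 34.8% of all genes. The libraries of both lines did not overlap for 5, 6 and 6 genes, against 55.8%, 55.2% and 46.7% of all genes. For GSCs against U87 both shares were near those of all genes, and so was the share without overlap for Diff cells against U87 (60% against 55.2%).

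**Figure D2:**
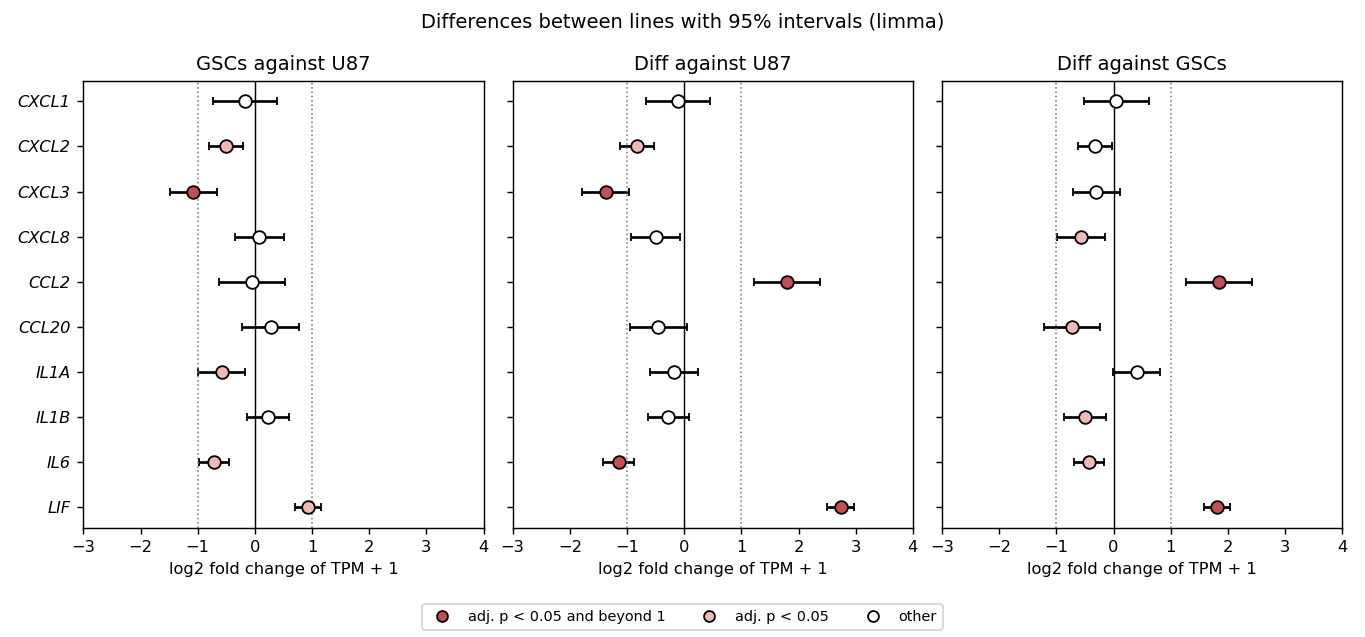
Points give the log2 fold change of TPM + 1 of each gene in the 3 comparisons, with 95% intervals from limma and dotted lines at −1 and 1. LIF and CCL2 lie to the right in both comparisons of Diff cells, and CXCL3 and IL6 lie to the left against U87.

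LIF, leukemia inhibitory factor, took a separate range of levels in each line. Its levels were 12.4, 10.1 and 12.7 TPM in U87, 24.3, 24.9 and 20.4 TPM in GSCs, and 84.2, 81.5 and 85.2 TPM in Diff cells. The 3 lines did not overlap, and every library of Diff cells lay above every library of GSCs, which lay above every library of U87. In Diff cells LIF rose 7.11-fold in TPM against U87 (log2 fold change 2.74, SE 0.101, adjusted p = 2.45e-07) and 3.61-fold against GSCs (1.81, adjusted p = 4.81e-06). In GSCs it was 1.97-fold higher than in U87 (0.92, 95% interval 0.69 to 1.15, adjusted p = 8.62e-05), which fell short of the fold threshold. Without GSCs replicate 3 this difference was 1.01 and was called. The opposite-strand gene LIF-AS2 was listed at 1.99 ± 0.246 TPM in U87, 2.91 ± 1.43 TPM in GSCs and 9.69 ± 1.93 TPM in Diff cells, and reads of the pair cannot be told apart if strand was not used.

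CCL2, the monocyte attractant, stayed under 1 TPM in every library of U87 and GSCs and was higher in Diff cells, through which alone its mean passed the filter on low levels. Its levels were 0.234, 0.969 and 0.720 TPM in U87, 0.675, 0.203 and 0.860 TPM in GSCs, and 6.06, 4.02 and 3.92 TPM in Diff cells. U87 and GSCs overlapped, whereas all Diff libraries lay above both. CCL2 rose 7.29-fold in Diff cells against U87 (log2 fold change 1.79, SE 0.252, adjusted p = 0.000537) and 8.06-fold against GSCs (1.85, adjusted p = 0.000687). With a pseudocount of 5 both differences were smaller and not called (0.77 and 0.79). Between GSCs and U87 the difference was −0.05 with a 95% interval of −0.63 to 0.52 (adjusted p = 0.882). In bulk RNA, fewer cells with a transcript and less of it per cell cannot be told apart. 

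IL6, the pleiotropic cytokine that activates STAT3, went the other way from LIF, its relative in the gp130 family. Its levels were 4.82, 4.54 and 4.28 TPM in U87, 2.25, 2.60 and 2.27 TPM in GSCs, and 1.45, 1.42 and 1.63 TPM in Diff cells. The libraries fell into 3 separate ranges, highest in U87 and lowest in Diff cells. IL6 fell in Diff cells against U87, where it was 3.03-fold lower in TPM (log2 fold change −1.15, SE 0.117, adjusted p = 7.6e-05). This call was lost with a pseudocount of 5 (−0.55). In GSCs it was 1.91-fold lower than in U87 (−0.72, adjusted p = 0.000959), short of the fold threshold. The step from GSCs to Diff cells (−0.43, adjusted p = 0.0198) did not keep an adjusted p under 0.05 without GSCs replicate 2, Diff replicate 1 or Diff replicate 2, with values of 0.0588, 0.0565 and 0.0617, and reached 0.0515 with the replicate number as a block. The genes overlapping IL6 on the opposite strand did not share its pattern: STEAP1B had 9.15, 11.6 and 8.75 TPM and IL6-AS1 0.680, 0.934 and 1.13 TPM on average in U87, GSCs and Diff cells.

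The 3 neutrophil chemokines that share transcript stretches differed in level and in pattern. CXCL3 was listed at 4.49, 4.03 and 3.31 TPM in U87, 1.90, 1.06 and 1.13 TPM in GSCs, and 1.10, 0.800 and 0.808 TPM in Diff cells. Both irradiated lines lay below all U87 libraries and overlapped each other. CXCL3 fell in GSCs, 2.90-fold in TPM (log2 fold change −1.08, SE 0.18, adjusted p = 0.00111), and in Diff cells, 4.37-fold (−1.37, adjusted p = 0.000348). The first of these calls did not pass the fold threshold without U87 replicate 1 (−0.997) or without GSCs replicate 2 (−0.99), while its adjusted p stayed at 0.00633 or lower in every omission of a library. With a pseudocount of 5 neither was called (−0.49 and −0.60).

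CXCL2 was the most abundant chemokine of the group, with 19.5, 18.4 and 18.7 TPM in U87, 14.7, 11.5 and 12.7 TPM in GSCs, and 8.31, 11.8 and 10.6 TPM in Diff cells. All U87 libraries lay above the other lines, which overlapped. The differences from U87 were −0.51 in GSCs (SE 0.13, adjusted p = 0.0106) and −0.83 in Diff cells (adjusted p = 0.000997), both short of the fold threshold. CXCL1 showed 1.33, 1.06 and 2.05 TPM in U87, 1.28, 0.672 and 1.71 TPM in GSCs, and 0.938, 1.10 and 1.82 TPM in Diff cells. The lines overlapped in all comparisons, and the 95% intervals of its log2 fold changes ran from −0.73 to 0.39, from −0.67 to 0.45 and from −0.51 to 0.61. CXCL1 therefore gave no difference that these libraries could show, and changes up to those limits remain possible. Its promoter carries the same pair of NF-κB-type matches as those of CXCL2 and CXCL3.

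CXCL8, interleukin 8, and CCL20 shared a lower level in Diff cells than in GSCs that depended on single libraries. CXCL8 had 4.26, 3.79 and 5.33 TPM in U87, 6.34, 3.84 and 4.25 TPM in GSCs, and 2.87, 2.43 and 3.30 TPM in Diff cells. Diff libraries lay below all others, and U87 and GSCs overlapped. Against GSCs the log2 fold change was −0.57 (adjusted p = 0.0447), and against U87 −0.49 (adjusted p = 0.0677). The former had an adjusted p under 0.05 in only 5 of 18 alternatives, reaching 0.132 without GSCs replicate 1 and 0.135 without Diff replicate 2, and the latter came to 0.0360 without GSCs replicate 1. Against GSCs it also passed 0.05 without U87 replicate 1 (0.0649), U87 replicate 2 (0.0529), GSCs replicate 3 (0.0557), Diff replicate 1 (0.0945) or Diff replicate 3 (0.0592).

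CCL20 had 6.25, 4.52 and 7.47 TPM in U87, 7.74, 6.07 and 8.77 TPM in GSCs, and 5.25, 3.00 and 4.32 TPM in Diff cells. All GSCs libraries lay above all Diff libraries, and U87 overlapped both. The difference between Diff cells and GSCs was −0.73 (SE 0.217, adjusted p = 0.03), with an adjusted p under 0.05 in 13 of 19 alternatives. It was 0.0800 without GSCs replicate 1, 0.0862 without GSCs replicate 3, 0.0972 without Diff replicate 2 and 0.0640 without Diff replicate 3. Against U87 the intervals were −0.22 to 0.77 for GSCs and −0.94 to 0.05 for Diff cells.

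The genes of the 2 IL-1 ligands, which lie side by side, did not share a pattern. IL1B, whose product needs cleavage by caspase-1, had 19.9, 15.4 and 21.5 TPM in U87, 20.3, 19.5 and 27.2 TPM in GSCs, and 17.3, 13.5 and 15.3 TPM in Diff cells. U87 overlapped both other lines, and Diff cells lay below GSCs (log2 fold change −0.50, SE 0.161, adjusted p = 0.0407). This p was under 0.05 in 10 of 19 alternatives and came to 0.0571 without U87 replicate 1, 0.0592 without GSCs replicate 1, 0.105 without GSCs replicate 3, 0.130 without Diff replicate 2 and 0.0937 without Diff replicate 3.

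IL1A, whose precursor is active without cleavage, had 5.24, 4.65 and 4.33 TPM in U87, 2.02, 3.76 and 2.89 TPM in GSCs, and 4.15, 3.39 and 4.72 TPM in Diff cells. GSCs lay below U87 (−0.58, SE 0.183, adjusted p = 0.0275), and Diff cells overlapped both. Without U87 replicate 1, U87 replicate 2, GSCs replicate 1 or GSCs replicate 3 the adjusted p was 0.0877, 0.0610, 0.0825 and 0.0519. Diff cells differed from U87 by −0.18, with a 95% interval of −0.60 to 0.24.

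**Figure D3:**
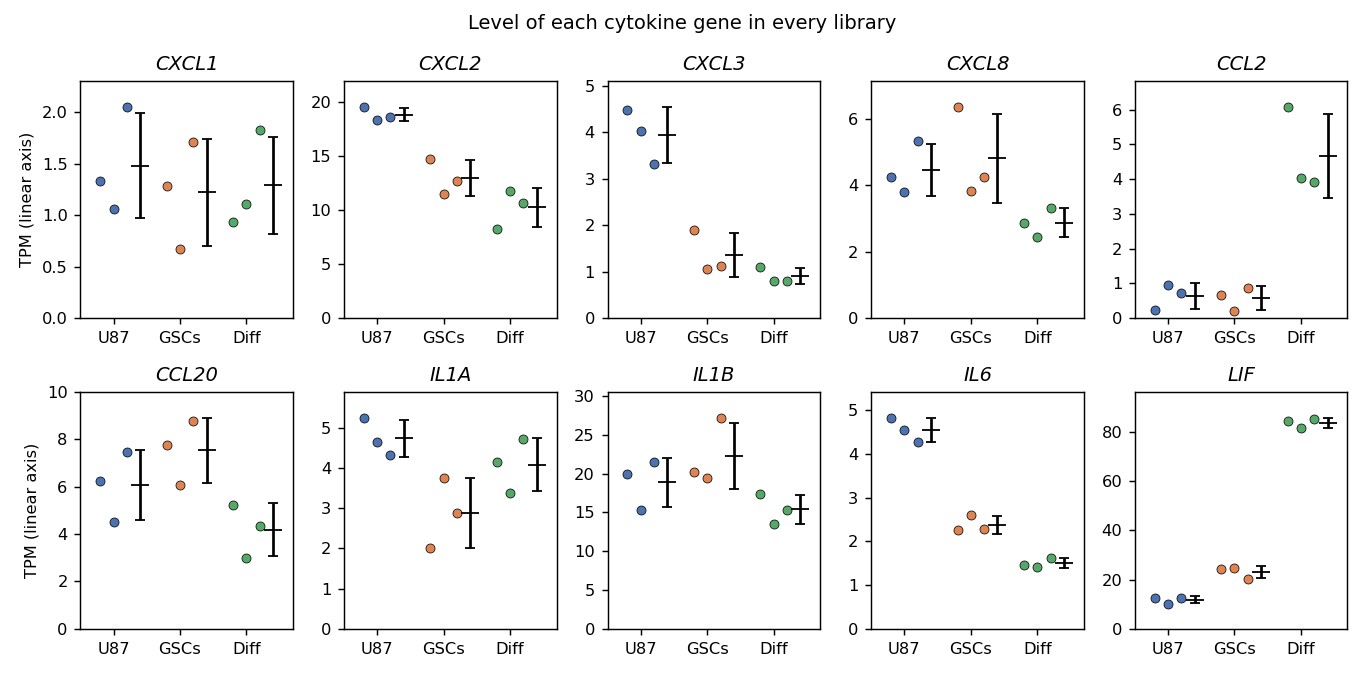
Each panel gives 1 gene, with a colored point per library and the mean ± SD of 3 libraries as a black bar, in TPM on a linear axis that starts at 0. LIF and CCL2 are highest in Diff cells, IL6, CXCL2 and CXCL3 are highest in U87, and the lines overlap in CXCL1.

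Patterns were also compared between genes as the root mean square difference of log2(TPM + 1) over the 9 libraries, each gene centred on its own mean, among 12062 tested protein-coding genes. Among the genes closest to IL6 was FAT4 (0.07), an atypical cadherin. Closest to LIF were TESPA1 (0.15) and MAF (0.16), the latter a transcription factor. Those closest to CCL2 were ILDR2 (0.24) and ZNF704 (0.26), and those closest to CXCL3 were CARMIL2 (0.13) and GTPBP2 (0.14). CXCL2 was nearest to PCDHGA3 and TMEM177, CXCL1 to ZFPL1 and CDADC1, CXCL8 to ALKAL2 and PRKAB2, CCL20 to TSPAN1 and GNG11, IL1A to FLYWCH2 and SPATA33, and IL1B to PIGP and PI4K2B, at differences of 0.08 to 0.17. Within the group, CCL20 and IL1B were nearest to each other (0.15), as were CXCL2 and IL6 (0.21), while LIF and CCL2 were further apart (0.56). TESPA1 averaged 0.00837, 1.03 and 5.67 TPM and MAF 0.0129, 0.743 and 6.36 TPM in U87, GSCs and Diff cells. Their change in TPM was larger than that of LIF, because a pseudocount of 1 understates changes from such low levels. TESPA1, MAF, ILDR2 and ZNF704 reached a mean above 1 TPM through Diff cells, where they were highest. This likeness over 9 libraries of 3 lines is a description and not one of fold changes in TPM.

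Genes next to the members on the chromosome were also examined. Of the 20 nearest tested protein-coding genes of IL6 (10 on each side), 17 had a log2 fold change above 0 when GSCs were set against U87 and 15 when Diff cells were, with medians of 0.72 and 0.55, while IL6 was at −0.72 and −1.15. Around LIF, 3 of 20 neighbours were above 0 in GSCs and 8 of 20 in Diff cells, with medians of −0.28 and −0.09, and LIF lay above the highest neighbour in both (0.44 and 0.75). CCL2 in Diff cells also lay above all of its 20 neighbours, whose highest value was 0.78.

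The receptors of the chemokines were at or near 0. CXCR2 and CCR6 were listed at 0 in all 9 libraries, CXCR1 reached 0.0561 TPM in 1 Diff library and CCR2 at most 0.112 TPM, so these lines held little or no transcript of the receptors through which 6 of the 10 products act. Of 16 chemokine receptor genes, 3 were tested. CCR1, a receptor for other CC chemokines, rose in both lines, with means of 36.9 TPM in U87, 173 TPM in GSCs (4.67-fold, adjusted p = 2.76e-06) and 99.5 TPM in Diff cells (2.69-fold, adjusted p = 5.55e-05). The other 2, CXCR6 and ACKR4, were not called in any comparison.

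The receptors of the gp130 family were present in all lines. IL6ST had 44.8, 37.1 and 47.5 TPM on average in U87, GSCs and Diff cells, LIFR 31.0, 20.8 and 18.1 TPM, and IL6R 3.91, 5.11 and 7.97 TPM. None of these 3 was called. LIFR was lower in both lines than in U87 (−0.57 and −0.74, adjusted p = 0.00222 and 0.000613), and GSCs and Diff cells overlapped. Of the 6 receptor genes tested, 1 was called against U87 in both lines, near the 17.1% and 12.3% of all genes called. It was IL27RA, the receptor of IL-27, with log2 fold changes of 1.84 and 1.90, which a pseudocount of 5 brought to 0.79 and 0.83. In Diff cells against U87, IL6R was higher (0.87, adjusted p = 0.000607) and OSMR, also on this list, lower (−0.88, adjusted p = 1.54e-05), both short of the fold threshold.

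In the IL-1 system neither ligand was called in any comparison. Of 5 tested receptor and antagonist genes, 3 were called in GSCs and 3 in Diff cells against U87, with 1 higher and 2 lower in each (17.1% and 12.3% of all genes were called). IL1RN, the antagonist that occupies the IL-1 receptor without signaling, rose in both lines, with means of 2.29 TPM in U87, 22.1 TPM in GSCs (log2 fold change 2.82, adjusted p = 4.16e-07) and 48.7 TPM in Diff cells (3.92, adjusted p = 1.12e-07), and the step from GSCs to Diff cells was also called (1.10), though not without Diff replicate 1 (0.99) or with a pseudocount of 5 (0.98). IL1RAP, the accessory chain that IL-1 signaling needs, fell from 10.3 TPM to 2.50 TPM in both lines (−1.70 in each). SIGIRR, which dampens signaling of this receptor family, fell from 4.36 TPM to 0.324 and 0.207 TPM (−2.01 and −2.15, or −0.81 and −0.84 with a pseudocount of 5, not called). Its mean passed the filter on low levels through U87 alone, so its place among the tested and lower genes rests on U87. The ligand receptor IL1R1 had 23.6, 21.7 and 37.0 TPM and was not called. Among 9 tested genes of IL-1 processing and release, 3 were called in GSCs and 2 in Diff cells against U87, beside 17.1% and 12.3% of all genes. CASP1 and CASP4, inflammatory caspases, rose in GSCs (1.35 and 2.41) and Diff cells (1.00 and 1.56), and the calpain CAPN2 fell in GSCs (−1.08). Of the 13 genes on this list, PYCARD and NLRP3 were not tested, at 0.247 and 0.0306 TPM or lower in every library. The call of CASP1 in Diff cells was lost without U87 replicate 2 (0.97), U87 replicate 3 (0.99), Diff replicate 1 (0.95) or Diff replicate 2 (0.94), and both CASP1 calls with a pseudocount of 5 (0.60 and 0.42).

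Other secreted factors of the same kind moved in both directions. Of 27 other chemokine genes, 3 were tested. CCL26, an eosinophil attractant, rose in Diff cells from 2.27 TPM in U87 and 0.775 TPM in GSCs to 19.4 TPM (log2 fold change 2.64 and 3.60). CXCL14 was called in Diff cells against U87 at 1.00 only, and not without U87 replicate 2 (0.81), Diff replicate 1 (0.89) or Diff replicate 3 (0.97), nor with a pseudocount of 5 (0.52). Of 18 tested genes among 31 other cytokines, 4 rose and 2 fell in GSCs, and 3 rose and 2 fell in Diff cells, against U87, beside 17.1% and 12.3% of all genes called. Among those that rose were IL33 in GSCs (0.979, 3.48 and 0.930 TPM in U87, GSCs and Diff cells) and IL12A in Diff cells (0.367, 1.01 and 2.59 TPM). Each passed the filter on low levels only through the line where it was high, so these counts rest in part on the filter. CSF1, the macrophage growth factor, rose from 59.1 TPM to 135 TPM in GSCs (1.18) and 264 TPM in Diff cells (2.14). IL24 rose from 0.755 TPM to 23.2 TPM in GSCs (3.79) and 5.24 TPM in Diff cells (1.82, or 0.83 and not called with a pseudocount of 5). Among relatives of IL-6 and LIF, IL11 fell in Diff cells (−1.50), and CLCF1 fell in GSCs (−1.33) and was higher again in Diff cells (1.18 against GSCs). TNFSF13B, the B cell factor BAFF, fell in both lines (−1.48 and −1.49, or −0.76 in each and not called with a pseudocount of 5).

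Genes that limit cytokine signals or cytokine mRNA were compared next. Of 17 tested genes of STAT3 feedback and targets, 2 rose and 1 fell in GSCs and 1 rose and 1 fell in Diff cells against U87, shares close to the 17.1% and 12.3% of all genes called. SOCS1, an inhibitor of JAK kinases, fell from 34.0 TPM to 7.04 TPM in GSCs (−2.13) and 5.24 TPM in Diff cells (−2.48). PIM1, a kinase that STAT3 induces, rose (1.94 and 1.31), and CEBPD rose in GSCs (1.26). SOCS3, also on this list, was lower in both lines (−0.78 and −0.55, adjusted p = 0.000238 and 0.00259), short of the fold threshold. The median log2 fold change of the list was 0.15 in GSCs and −0.05 in Diff cells against U87. Of 14 tested genes that control cytokine mRNA or NF-κB, 5 rose in GSCs against U87 and none fell (9.52% of all genes rose), and 1 rose in Diff cells, near the 5.92% of all genes. ZFP36, which marks cytokine mRNAs for decay, went from 67.0 TPM in U87 to 225 TPM in GSCs (1.71) and 55.8 TPM in Diff cells, a fall of 1.96 on the log2 scale from GSCs. Its relatives ZFP36L2 (1.68) and ZFP36L1 (1.19) and the stress factor ATF3 (1.86) rose in GSCs as well, and ATF3 fell again in Diff cells (−2.01 against GSCs). TNFAIP3, the NF-κB inhibitor A20, rose in both lines (1.75 and 1.26, the latter 0.97 and not called with a pseudocount of 5).

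**Figure D4:**
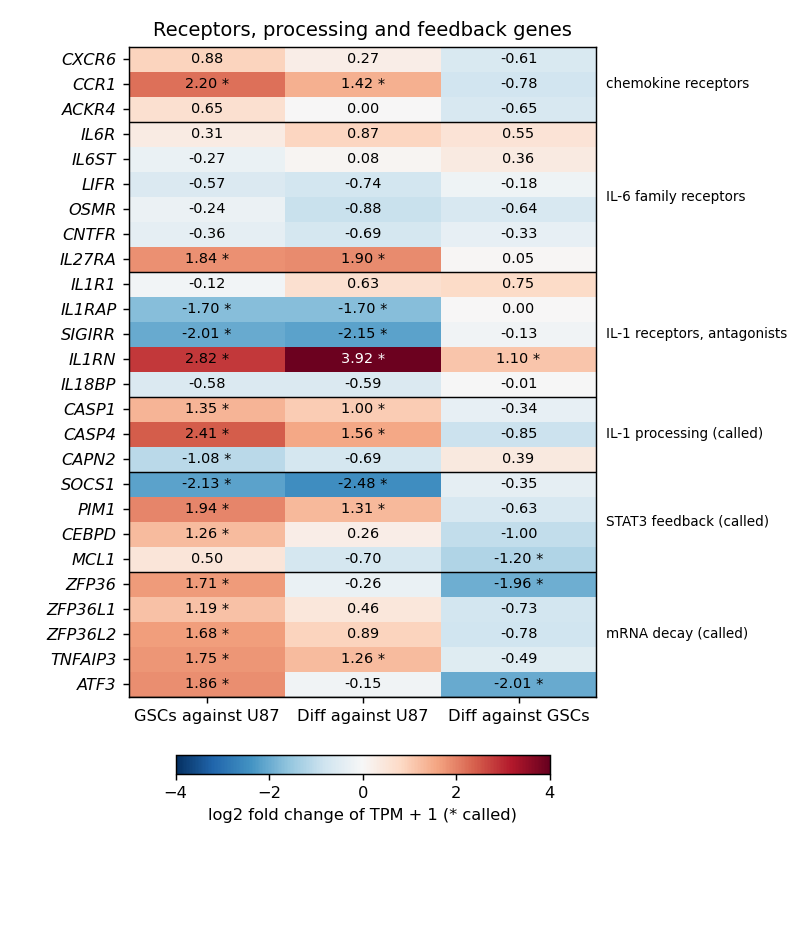
Cells give the log2 fold change of TPM + 1 in 3 comparisons for all tested genes of 3 receptor lists and for the called genes of 3 further lists, with a star where the gene was called. IL1RN is the darkest red row (2.82 and 3.92 against U87), and SOCS1 and SIGIRR are dark blue against U87 (−2.13 and −2.01 in GSCs).

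The libraries were checked for other cells and for their labels. The summed level of 17 immune cell markers was 19.1 to 22.7 TPM in U87, 15.8 to 17.7 TPM in GSCs and 24.4 to 26.9 TPM in Diff cells, and 4 of the 17 had a mean above 1 TPM. Among the defining markers, TYROBP was listed at 0 everywhere and PTPRC reached 0.137 TPM. Of the 4 markers above 1 TPM, CD2 and FCER1G were higher in Diff cells than in U87 (2.10 and 1.45), as were LIF and CCL2, whereas CSF1R was lower (15.0 TPM in U87 and 9.77 TPM in Diff cells, −0.57) and CD68 overlapped (−0.10). Their part in the result was not tested. Summed fibroblast and mural markers were 527 to 628 TPM in U87, 56.3 to 62.5 TPM in GSCs and 211 to 217 TPM in Diff cells. Within them COL1A1 averaged 497, 27.7 and 157 TPM, while LUM was higher in Diff cells, as were LIF and CCL2, at 1.36, 0.841 and 24.3 TPM (3.44 against U87 and 3.79 against GSCs). The part of these markers in the results was not tested. Endothelial markers summed to 12.1 to 15.0, 35.1 to 40.6 and 14.6 to 18.8 TPM, with VWF and KDR higher in GSCs than in U87 (3.03 and 1.39). PECAM1 averaged 2.77, 6.25 and 2.92 TPM in U87, GSCs and Diff cells. TEK went the other way, at 2.41, 1.12 and 0.437 TPM, and CDH5 stood at 0.465 TPM or lower. Epithelial markers summed to 18.5 to 20.9, 26.7 to 35.6 and 11.3 to 24.6 TPM. KRT5 and KRT14 stood at 5.54 and 6.03 TPM in Diff replicate 1 and at 0.0661 TPM or lower in all other libraries. Diff replicate 1 also had the highest CCL2, and without it the log2 fold change of CCL2 in Diff cells was 1.63 against U87 and 1.68 against GSCs, both still called. Summed glioma and stem cell markers were 2288 to 2329, 2206 to 2591 and 2650 to 3051 TPM, but the stem cell markers SOX2 and PROM1 stayed under 1 TPM in every library, with means of 0.879 and 0.507 TPM in GSCs against 0.0383 and 0.171 TPM in U87. FABP7, another marker of that list, rose in GSCs (4.91 against 0.731 TPM, 1.77) and in Diff cells (1.16), neither called with a pseudocount of 5 (0.79 and 0.45). NES, also on that list, went the other way, with means of 33.0, 22.6 and 13.5 TPM in U87, GSCs and Diff cells. The sums of this list cover opposite changes: VIM averaged 1640, 1214 and 616 TPM, and CHI3L1 107, 557 and 1809 TPM. The noncoding RN7SL genes took 6.08% to 11.4% of all TPM, most in U87, and mitochondrial genes 25.9% to 31.8%.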

How the data were processed

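Transcripts were measured by RNA-seq in 3 libraries of each line. The deposited table gives log2(TPM + 1), computed by the authors, for 60606 genes. Back-transformed TPM summed to 1000000 in each library, so depth is unknown and no counting interval was computed. The sample records name FastQC 0.11.9, Trimmomatic 0.39, HISAT2 2.2.1, featureCounts 2.0.5, R 4.2.0 and GRCh38 in their processing notes. The annotation release is not given in the sources used here. According to the records ribosomal RNA was depleted and libraries were directional, whereas the paper's methods name oligo(dT) beads.

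Here, limma 3.58.1 (R 4.3.3, lmFit and eBayes with trend, pseudocount 1) was fitted once to the 3 lines for the 22909 genes whose mean TPM exceeded 1. Benjamini-Hochberg adjustment was made within each comparison, and calls required an adjusted p under 0.05 with a log2 fold change beyond 1 in either direction. The procedure was also run on simulated data with normal noise, which does not test its assumptions for these libraries. The supplement speaks of biological replicates for the study in general, but no source says how the libraries of a line relate to cultures, so p-values measure only the spread between these libraries. Groups were taken from the sample records. The members, the gene lists, the motifs and the tests were chosen with earlier results of these data known. Genes named are the 10 members, up to 4 called genes per list and comparison by size, the receptors of the members' products, the overlapping genes, defining markers and the 2 genes closest in pattern to each member, of which 1 is not reported here. ZFP36L1, CXCR6, ACKR4, IL12A, SOCS3, PYCARD and NLRP3 were named after their values were seen. Coordinates of genes are from GENCODE 29 and promoters from RefSeq (GRCh38.p14), with Python 3.11.15. A planned comparison of protein sequences was not run. Alternatives covered pseudocount, filter, scaling, trend, samples, replicate block, threshold and omission of each library. Of 15 mRNA decay genes listed, 14 matched a symbol in the table.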

Additional observations from a re-analysis of the deposited data

How the results depend on the processing

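Calls for low genes depended on the pseudocount and the filter. With a pseudocount of 5, 0, 1 and 1 of the 10 genes were called in GSCs against U87, Diff cells against U87 and Diff cells against GSCs, in place of 1, 4 and 2, and 1707, 1146 and 673 of all genes, in place of 3908, 2812 and 1836. With a mean TPM over 5, which left fewer genes to test, the counts were 0, 1 and 1 of the 10 and 2254, 1583 and 1038 of all genes. By adjusted p alone they were 5, 5 and 6 of the 10, 73, 66 and 61 of the genes of all lists, and 11129, 9024 and 7982 of all genes. The list genes called in Diff cells against U87 were 16 with a pseudocount of 5 and 17 with a mean TPM over 5. Under the other scalings the numbers of the 10 genes called stayed within 1.5 times of the main ones. By adjusted p alone, Diff cells exceeded GSCs for 3447 genes and lay below them for 4535, and for 4381 and 3756 under quantile normalization.

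Omission of single libraries gave 0 to 2 of the 10 genes called in GSCs against U87 (0 without U87 replicate 1 or GSCs replicate 2, 2 without GSCs replicate 3), 4 to 4 in Diff cells against U87 and 2 to 2 in Diff cells against GSCs. Signs turned only for differences that were not called: the log2 fold change of CXCL8 in GSCs against U87 ran from −0.11 to 0.19 over omissions and was −0.00041 under quantile normalization, that of CCL2 ran from −0.24 to 0.13, and that of CXCL1 from −0.32 to 0.024, from −0.28 to 0.044 and from −0.14 to 0.21 in the 3 comparisons.

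Replicate numbers did not pair the libraries: deviations of libraries with the same number correlated at −0.042 to 0.049 over 9 pairs, and those of different number at −0.058 to 0.054 over 18. With the replicate number as a block, 1, 4 and 2 of the 10 genes and 3917, 2810 and 1831 of all genes were called. The block moved the adjusted p of IL1A in GSCs against U87 to 0.0562, of IL6 in Diff cells against GSCs to 0.0515 and of CCL20 in Diff cells against U87 to 0.0319, across 0.05. With 3 libraries per line and no depth, small differences of genes near 1 TPM could not be resolved.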
